A study of Mus musculus with 10 samples.

Results

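Loss of Vps34 was described here as a single genotype effect shared by spleen and lung, in the chromatin accessibility profiles of regulatory T (Treg) cells. All 10 libraries of the series were used: 6 from Vps34-deficient cells were compared with 4 from control cells, with the tissue as a covariate, over the 97109 of 97385 peaks that passed a count filter. The Vps34-deficient libraries came from Foxp3CrePik3c3fl/fl mice (4 from spleen and 2 from lung), and the control libraries from mice labelled Foxp3CrePikc3c+/+ or Foxp3CrePikc3c+/fl (2 from spleen and 2 from lung). Labels and table headers give these spleen group sizes, but the methods of the study give them the other way round. The labels were followed, the cause of the conflict was not tested, and every spleen value and direction below rests on them. The lung group sizes are not in conflict, and at the lead Klrg1 and Il10 peaks given below the libraries labelled Vps34-deficient were lower in both tissues. All mice were 10 days old, and the cells were sorted as CD4+Foxp3-YFP+TCRb+. Every group, the controls included, carried the Cre driven by Foxp3, so deletion was directed to cells that express Foxp3. The sources used here do not state which control library was +/+ and which +/fl. The labels do not say whether replicates came from separate mice, though the study gives its group sizes in mice. Neither says whether spleen and lung libraries came from the same mice. The p-values measure the spread between these libraries, which may be partly technical.

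Vps34, encoded by Pik3c3, is the class III phosphoinositide 3-kinase, which makes the lipid phosphatidylinositol 3-phosphate on endosomal and autophagic membranes. Treg cells depend on the transcription factor Foxp3 and range from resting, lymph node-homing cells to effector cells that settle in tissues and make cytokines such as IL-10. In ATAC-seq a transposase cuts accessible DNA, and the counts in a peak measure how open that stretch of chromatin was in the sampled cells. In sorted populations fewer cells of an open subset and a lower accessibility per cell cannot be told apart.

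The sequences below were read from the GRCm38 mouse genome (RefSeq), forward strand, 200 bases around the centre of each peak. They were picked from the named peaks, with their letters known, to show the motifs whose shares differed most between the called sets. Capitals mark matches on either strand to the letters of AP-1 (TGANTCA), Runx (TGTGGT), Ets (CAGGAAG) and Tcf/Lef (CTTTGA). The first 7 belong to peaks that were less accessible in Vps34-deficient cells, and the last 3 to peaks that were more accessible. Each is named by the gene with the nearest protein-coding start, which need not be the gene it acts on.
Jag1, chr2:137224662-137224861: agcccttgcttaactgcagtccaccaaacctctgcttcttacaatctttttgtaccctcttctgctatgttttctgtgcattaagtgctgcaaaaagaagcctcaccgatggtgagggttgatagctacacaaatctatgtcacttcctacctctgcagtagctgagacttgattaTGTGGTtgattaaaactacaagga
Prg2, chr2:84964194-84964393: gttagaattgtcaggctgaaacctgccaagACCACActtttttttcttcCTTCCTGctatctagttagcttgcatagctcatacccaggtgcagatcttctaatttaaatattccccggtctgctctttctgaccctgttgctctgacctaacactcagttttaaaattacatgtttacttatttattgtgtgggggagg
Cd34, chr1:194995282-194995481: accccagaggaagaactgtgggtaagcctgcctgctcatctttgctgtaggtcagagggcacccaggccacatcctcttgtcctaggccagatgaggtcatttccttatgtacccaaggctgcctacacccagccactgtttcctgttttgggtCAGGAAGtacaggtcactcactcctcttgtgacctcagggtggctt
Nt5c2, chr19:46863597-46863796: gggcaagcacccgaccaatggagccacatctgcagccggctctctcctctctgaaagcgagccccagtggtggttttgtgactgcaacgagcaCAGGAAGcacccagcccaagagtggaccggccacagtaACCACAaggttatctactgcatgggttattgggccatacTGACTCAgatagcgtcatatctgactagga
Gpcpd1, chr2:132613683-132613882: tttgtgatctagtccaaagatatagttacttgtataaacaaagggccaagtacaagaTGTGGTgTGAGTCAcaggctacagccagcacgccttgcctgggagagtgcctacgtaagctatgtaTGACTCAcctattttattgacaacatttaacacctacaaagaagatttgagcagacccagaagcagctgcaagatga
Il10, chr1:131003290-131003489: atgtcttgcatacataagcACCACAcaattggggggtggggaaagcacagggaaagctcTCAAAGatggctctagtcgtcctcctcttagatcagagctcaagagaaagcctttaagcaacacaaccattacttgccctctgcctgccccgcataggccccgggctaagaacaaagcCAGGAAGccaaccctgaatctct
Lamc1, chr1:153300475-153300674: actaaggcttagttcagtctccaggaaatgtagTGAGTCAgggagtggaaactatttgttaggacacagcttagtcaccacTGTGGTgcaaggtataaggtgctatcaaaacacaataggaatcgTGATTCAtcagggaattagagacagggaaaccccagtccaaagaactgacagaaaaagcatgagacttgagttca
Usp10, chr8:119948484-119948683: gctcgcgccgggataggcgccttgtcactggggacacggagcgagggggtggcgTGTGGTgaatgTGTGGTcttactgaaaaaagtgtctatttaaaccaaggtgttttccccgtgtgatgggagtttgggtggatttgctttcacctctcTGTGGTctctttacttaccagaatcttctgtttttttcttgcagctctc
Ccr7, chr11:99170895-99171094: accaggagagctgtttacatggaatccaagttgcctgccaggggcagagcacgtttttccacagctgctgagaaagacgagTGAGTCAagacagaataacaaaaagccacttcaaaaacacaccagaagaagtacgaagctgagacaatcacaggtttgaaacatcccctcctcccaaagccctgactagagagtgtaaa
Foxn3, chr12:99610531-99610730: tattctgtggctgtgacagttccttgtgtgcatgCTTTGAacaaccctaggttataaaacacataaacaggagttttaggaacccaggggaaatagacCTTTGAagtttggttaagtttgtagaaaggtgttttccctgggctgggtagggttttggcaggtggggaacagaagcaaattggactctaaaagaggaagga

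The libraries held 9405823 to 22439699 counts in peaks, and the common replicate variation of the fit was 17.8% (a coefficient of variation). The targeted gene gave no check of the deletion. The peak at the Pik3c3 promoter (chr18:30272595-30273114) lay between 53.9 and 66.8 CPM (counts scaled to a common library size) in all 10 libraries, with a log2 fold change of 0.08 (SE 0.07; edgeR, adjusted p 0.49). The part of the gene that Cre removes is not given in the sources used here. Treg genes were open in both genotypes: none of 4 peaks nearest to Foxp3 and none of 16 nearest to Il2ra was called, and the peak with the most counts near Foxp3 (chrX:7583818-7584442) ranged from 21.9 to 34.5 CPM.

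A class of narrow peaks stood apart in these libraries and bears on every count of peaks that were higher. Of the tested peaks 12826 (13.2%) were 209 to 216 bp wide, and 6921 of them were exactly 210 bp. These narrow peaks took 3.13% and 4.07% of the counts in the spleen control libraries. Spleen libraries without Vps34 had shares of 5.83%, 5.26%, 4.12% and 5.83%. The lung controls had 10.9% and 6.46%, against 11.4% and 12.5% once Vps34 was lost. The Vps34-deficient libraries were above the controls in each tissue, 1.44-fold on average, though in spleen the lowest of them (4.12%) was close to the higher control (4.07%). The bounds of the class were set after seeing the data, so this is a description with no test. In narrow peaks 97.6% to 99.0% of the counts were even numbers, against 90.5% to 96.1% in the other peaks. Of the narrow peaks 14.4% were called higher and 0.366% lower in Vps34-deficient cells. The cause of the narrow class was not tested, and the main counts of higher peaks are given below with and without it.

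**Figure D1:**
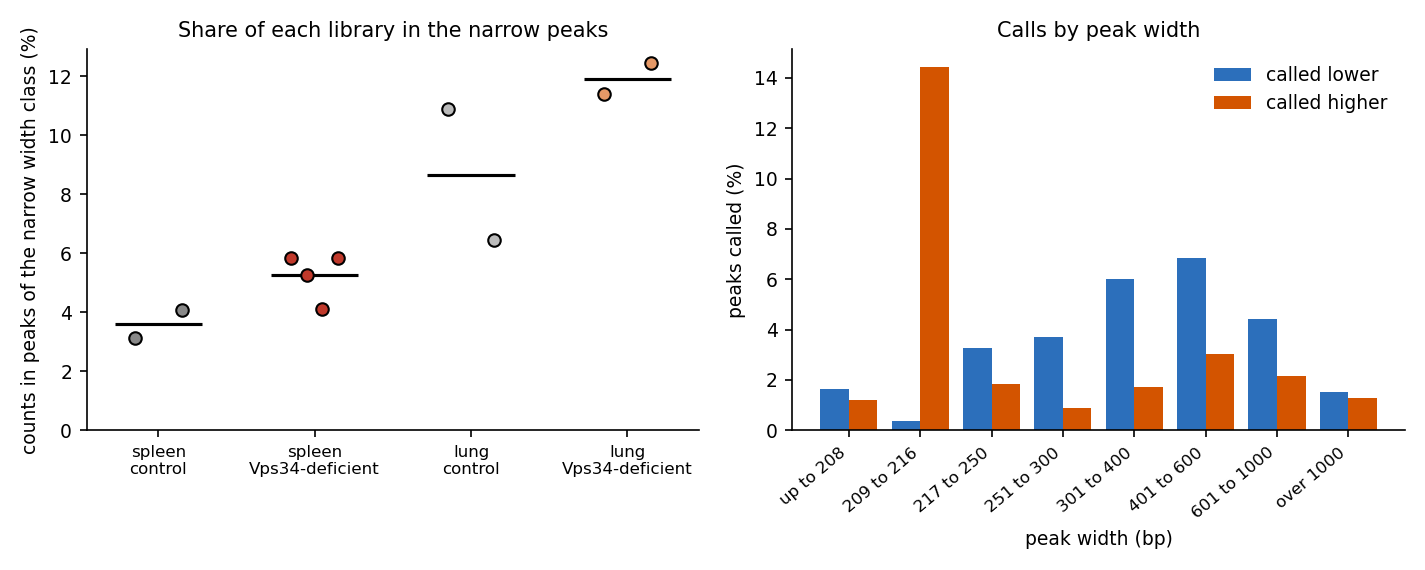
Left, the percentage of each library's counts in peaks of 209 to 216 bp, with 1 point per library and a line at the group mean. Right, the percentage of tested peaks called lower or higher in Vps34-deficient cells by peak width in bp: 14.4% of the 209 to 216 bp class were called higher, against at most 3.02% in the other width classes.

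Averaged over spleen and lung, 3938 peaks (4.06% of those tested) were less accessible and 3416 (3.52%) more accessible in Vps34-deficient Treg cells. A call required that the log2 fold change exceed 0.5 in size with an adjusted p below 0.05 in the quasi-likelihood test of edgeR (n = 6 against 4). The lower peaks moved further: their median log2 fold change was -1.06, with 2132 beyond -1 and 402 beyond -2, whereas the higher peaks had a median of 0.77, with 894 above 1 and 99 above 2. Narrow peaks made up 54.1% of the higher set and 1.19% of the lower set. Outside the narrow class 3891 of 84283 peaks (4.62%) were lower and 1567 (1.86%) higher. The latter number was 897 when lung Vps34-deficient replicate 1 was dropped, 955 without lung control replicate 2 and 1021 without spleen Vps34-deficient replicate 2. Lower peaks were 53.5% of all called peaks and 71.3% of those outside that class. The first of these values turned to 49.0% by DESeq2, 49.8% with a mean count of at least 20 and 40.5% without lung control replicate 1. When the log2 share of counts in narrow peaks was added as a covariate, 989 lower and 175 higher peaks were called, with 964 of the lower ones among the 3938 lower peaks. That share moved with genotype in both tissues, so its part and that of the genotype cannot be told apart. The number of higher peaks also rested on single libraries: it was 1426 without lung control replicate 2, 1641 without spleen control replicate 1, 2052 and 2182 without spleen Vps34-deficient replicates 1 and 2, 2260 without lung Vps34-deficient replicate 1 and 5762 without lung control replicate 1. The number of lower peaks stayed between 2852 and 4198 when any 1 library was left out.

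The strongest lower peaks lost most of their accessibility in both tissues. Of these, 10 were named by the smallest p among lower peaks whose genotypes did not overlap in either tissue, a pattern that 6.38% of all tested peaks showed in the lower direction. The peak 108 kb from the start of Jag1, a ligand of Notch receptors, headed the list (chr2:137224453-137225071). It measured 14.9 and 19.6 CPM in control spleen and 2.07, 1.70, 2.52 and 2.55 CPM in Vps34-deficient spleen. The lung controls measured 29.9 and 37.4 CPM, against 3.99 and 6.65 CPM without Vps34. All 6 Vps34-deficient libraries were far below all 4 controls, with an average log2 fold change of -2.84 (SE 0.16) and an adjusted p of 8.05e-11 (edgeR).

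The peak 16.2 kb from the start of Prg2, which encodes the major basic protein of eosinophils, measured 14.6 and 17.6 CPM in control spleen and 1.93 to 3.39 CPM in Vps34-deficient spleen. Control lung held 22.0 and 24.6 CPM, against 3.33 and 4.29 CPM without Vps34 (chr2:84963980-84964607; log2 fold change -2.65, SE 0.16, edgeR adjusted p 1.47e-10). The peak nearest to Cd34, a surface sialomucin of progenitor and endothelial cells, lay 56.5 kb from its start (chr1:194995141-194995623). It fell from 23.4 and 24.4 CPM to 3.30 to 6.10 CPM in spleen and from 30.8 and 31.9 CPM to 5.99 and 7.29 CPM in lung, by 2.29 on the log2 scale (SE 0.14). At both peaks every Vps34-deficient library, of either tissue, was far below every control.

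The largest change among the 10 was at a peak in an intron whose nearest start is that of Nt5c2, a cytosolic nucleotidase (chr19:46863466-46863927). It measured 4.65 and 5.63 CPM in control spleen, 0.276, 0.849, 0.347 and 0.426 CPM in Vps34-deficient spleen, 13.1 and 19.1 CPM in control lung and 1.33 and 0.643 CPM in Vps34-deficient lung. The log2 fold change was -3.67 (SE 0.26), which is 12.7-fold lower, and the adjusted p was 2.2e-09 (edgeR). The sequence of this peak shown above holds an AP-1, a Runx and an Ets match. Of the 10, 1 was a promoter peak. At Igsf9b, which encodes a synaptic adhesion molecule of the immunoglobulin superfamily, 8 bp from the start (chr9:27298957-27299434), accessibility fell in spleen, where controls averaged 35.1 ± 0.757 CPM (SD, n = 2) and deficient libraries 13.0 ± 2.03 CPM (SD, n = 4), and in lung, where the averages were 48.2 ± 0.758 CPM (SD, n = 2) and 17.0 ± 3.30 CPM (SD, n = 2).

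The remaining 5 lay nearest to Lmnb1, Rbms3, Tm2d1, Gpcpd1 and Ythdc1, with average log2 fold changes from -1.37 (Gpcpd1) to -1.91 (Tm2d1). Lmnb1 encodes a lamin of the nuclear envelope, Rbms3 an RNA-binding protein, Gpcpd1 a glycerophosphocholine phosphodiesterase and Ythdc1 a nuclear reader of methylated adenosine in RNA. The interaction terms of the 10 peaks had adjusted p-values from 0.73 to 0.99 (edgeR). The peaks were chosen for a fall in both tissues, so weak interaction terms partly follow from the choice. All 10 stayed called under each of the 24 other fits tried at the same thresholds, the narrow-peak covariate included.

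Among the higher peaks the 10 named ones lay near genes with varied roles. They were named by the same rule, with genotypes apart in both tissues in the higher direction at 6.02% of all tested peaks. The leading peak was in an intron 4.69 kb from the start of Usp10, a deubiquitinase (chr8:119948283-119948885). It measured 9.57 and 8.45 CPM in control spleen and 17.2, 19.3, 15.6 and 17.0 CPM in Vps34-deficient spleen, and 6.33 and 4.86 CPM against 17.5 and 13.1 CPM in lung. All 6 Vps34-deficient libraries exceeded the 4 controls, with a log2 fold change of 1.14 (SE 0.15) and an adjusted p of 1.47e-05 (edgeR).

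The peak 119 kb from Ccnd2, which encodes cyclin D2, rose from 8.10 and 7.55 CPM to between 13.3 and 15.5 CPM in spleen and from 6.33 and 7.95 CPM to 16.8 and 12.9 CPM in lung (chr6:127270576-127271537; log2 fold change 0.95, SE 0.14). A peak in an intron of the X-linked scaffold gene Dlg3 rose in spleen, where controls averaged 14.6 ± 0.443 CPM (SD, n = 2) and deficient libraries 24.3 ± 3.46 CPM (SD, n = 4), and in lung, where the averages were 7.2 ± 0.609 CPM (SD, n = 2) and 18.4 ± 1.09 CPM (SD, n = 2). The largest relative change was at a peak near BC053393 on chromosome 11, which was almost closed in controls: 0.172 and 0.137 CPM in spleen and 0 and 0.147 CPM in lung. The Vps34-deficient libraries read 0.414, 2.30, 2.34 and 2.84 CPM in spleen and 2.16 and 4.50 CPM in lung, so they were higher throughout but 1 spleen library was far below the rest. No fold is given for this peak because the control counts are near 0.

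The other 6 were nearest to 1700025G04Rik, Krr1, Gpatch2, Uros, Fggy and Wdr11, with log2 fold changes from 0.54 (Krr1, a ribosomal RNA processing factor) to 2.20 (1700025G04Rik). None of the 10 was narrow. With the narrow-peak covariate 7 of the 10 stayed called. Under the remaining fits at the same thresholds 9 of 10 stayed called in all. The Krr1 peak, close to the fold change limit, lost its call without lung control replicate 2 (log2 fold change 0.45) and without lung Vps34-deficient replicate 2 (0.47). A stricter limit of 1 on the log2 fold change was met by fewer of the 10, with Krr1 and Ccnd2 below it.

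**Figure D2:**
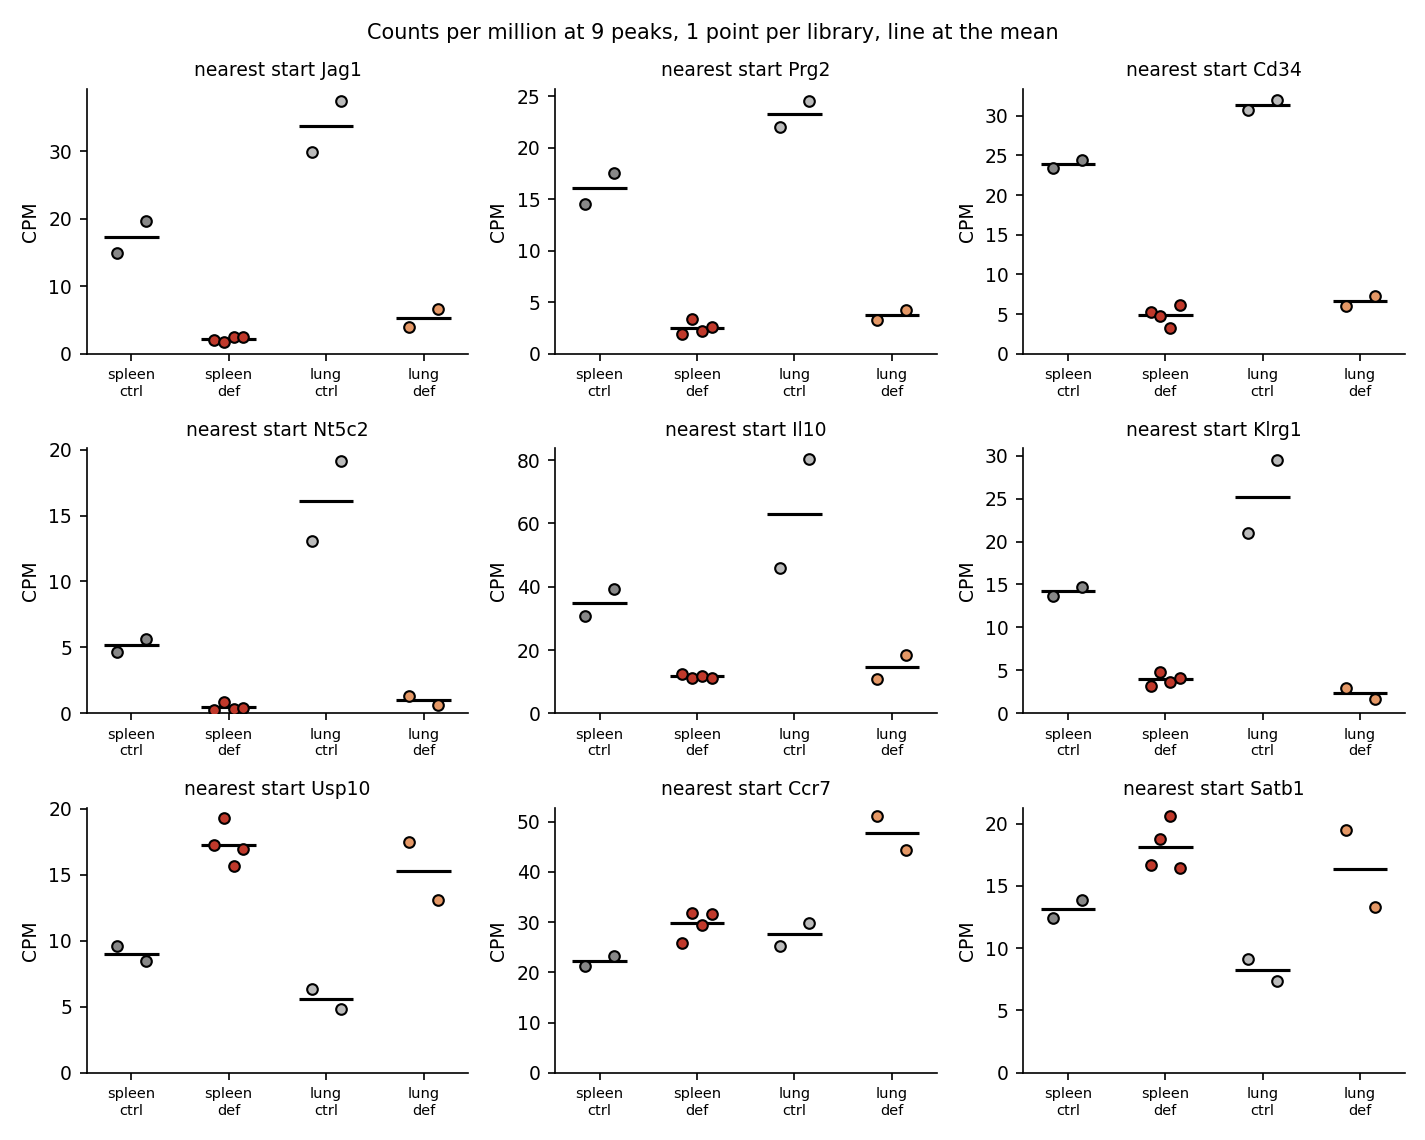
CPM at 9 peaks (vertical axis from 0), named by the nearest start, in control (ctrl) and Vps34-deficient (def) libraries of spleen and lung; each point is 1 library and lines are group means. At the Jag1, Prg2, Cd34, Nt5c2, Il10 and Klrg1 peaks every Vps34-deficient library lies below every control of its tissue, and at Usp10, Ccr7 and Satb1 every one lies above.

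Whether the average stands for both tissues was asked with the interaction of genotype and tissue. No peak passed that test (0% called, edgeR). The smallest adjusted p was 0.16, and 7060 peaks had an unadjusted p below 0.05. DESeq2 called 24 peaks and edgeR 21 without lung control replicate 1. The lower peaks had a median log2 fold change of -0.84 in spleen and -1.34 in lung, values that rest on the same libraries as the average. Of the 3938 lower peaks 866 had an unadjusted interaction p below 0.05, and of the 3416 higher peaks 238. Higher peaks outside the narrow class had medians of 0.70 in spleen and 0.94 in lung, while narrow ones had 0.85 in spleen and 0.66 in lung. In 3324 lower peaks (84.4%) and 1217 of the 1567 higher peaks outside the narrow class (77.7%) no Vps34-deficient library overlapped a control of its tissue, against 6.38% and 6.02% of all tested peaks in the lower and higher directions. The share was 59.0% of the narrow higher peaks and 67.5% of all higher peaks. The called peaks were chosen by their genotype difference in these same libraries, so high shares partly follow from the choice and are no test.

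**Figure D3:**
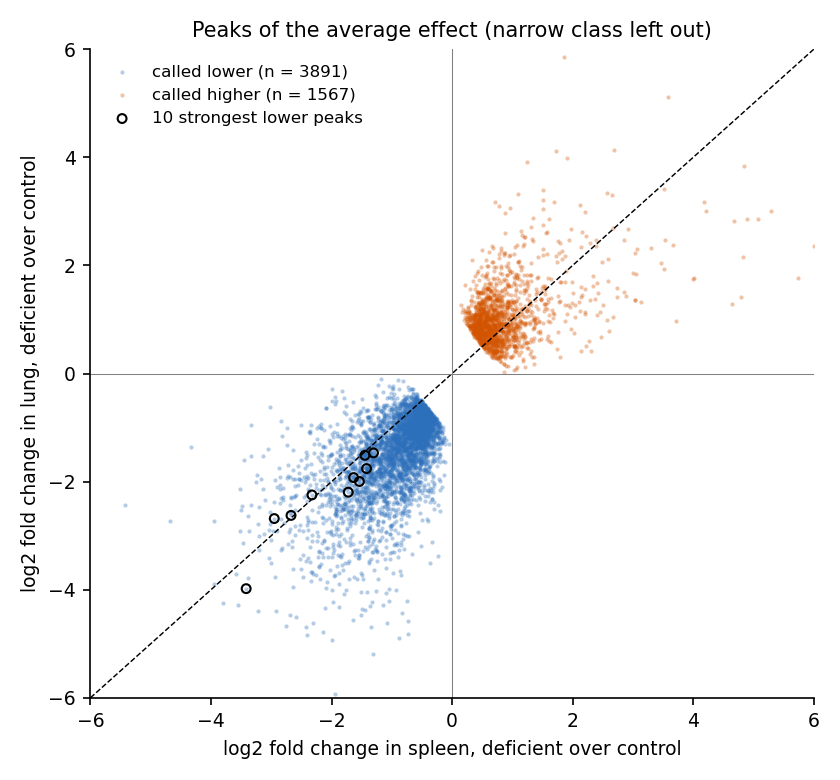
Log2 fold change of Vps34-deficient over control cells in spleen (horizontal axis) and lung (vertical axis) for the called peaks outside 209 to 216 bp, blue for the 3891 lower and orange for the 1567 higher peaks. The dashed line marks equal change, rings mark the 10 strongest lower peaks, and 37 peaks beyond 6 on either axis are not shown; the lower peaks have medians of -0.84 in spleen and -1.34 in lung.

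Loci with many lower peaks were next described by the nearest start. They were ranked by their number of lower peaks, which favours genes with many tested peaks. Over all tested peaks 4.06% were lower. Atxn1, which encodes the transcriptional regulator ataxin-1, had the most, with 16 of its 41 tested peaks lower and none higher. Its strongest peak (chr13:45917221-45917691) measured 7.97 and 9.75 CPM in control spleen and 0.284 to 1.66 CPM in Vps34-deficient spleen, and 11.6 and 16.5 CPM against 1.83 and 1.93 CPM in lung. That is a log2 fold change of -3.25 (SE 0.28). Maf, which encodes the bZIP transcription factor c-Maf, followed with 13 of 65 peaks lower and 1, a narrow one, higher, the farthest called one 431 kb from its start. Its lead peak (chr8:115726290-115727226) fell in spleen, where controls averaged 21.9 ± 1.18 CPM (SD, n = 2) and deficient libraries 11.5 ± 1.85 CPM (SD, n = 4), and in lung, where the averages were 31.5 ± 1.72 CPM (SD, n = 2) and 11.6 ± 2.46 CPM (SD, n = 2).

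Il10, which encodes the suppressive cytokine IL-10, had the largest share of lower peaks among the 12 loci. Of its 12 peaks 9 were lower, spread over 51.8 kb, and 11 had a negative log2 fold change. The lead peak lay 16.5 kb from the start, between genes (chr1:131002986-131003793). It measured 30.7 and 39.1 CPM in control spleen and 12.4, 11.3, 11.8 and 11.1 CPM in Vps34-deficient spleen, and 46.0 and 80.2 CPM against 10.8 and 18.4 CPM in lung. The control lung libraries differed from each other, yet both were above every Vps34-deficient library, with a log2 fold change of -1.81 (SE 0.15) and an edgeR adjusted p of 1.33e-08. A further peak 1.82 kb from the start (chr1:131021475-131021855) fell by 1.92 on the log2 scale. When any 1 library was left out 9 peaks of the locus were lower in every case, and 5 were with the narrow-peak covariate.

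At Klrg1, a lectin-like inhibitory receptor of terminally differentiated lymphocytes, 8 of 13 peaks were lower, 2 of them at its promoter. The promoter peak 0.039 kb from the start (chr6:122282594-122283092) changed by -2.48 (SE 0.35) on the log2 scale and the lead peak 20.1 kb away (chr6:122262463-122263122) by -2.41 (SE 0.22). The lead peak measured 13.7 and 14.7 CPM in control spleen and 3.17 to 4.85 CPM without Vps34. Control lung held 20.9 and 29.4 CPM, against 2.99 and 1.72 CPM without Vps34. Between 8 and 9 peaks of this locus stayed lower in the leave-one-out fits, and 6 with the narrow-peak covariate.

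Of the other loci among the 12 with the most lower peaks, Lamc1, a laminin chain, had 11 of 20 peaks lower and 19 with a negative log2 fold change. Ubl3 had 11 of 35 lower, Rapgef5, an exchange factor of the Ras family, 10 of 50, and Itpr1, the endoplasmic reticulum calcium channel gated by inositol trisphosphate, 9 of 54. Ptprj, a receptor tyrosine phosphatase, had 9 of 24 lower, Katnal1, a microtubule-severing subunit, 9 of 39, Xylt1, a xylosyltransferase of proteoglycan synthesis, 9 of 40, and Ets1, a transcription factor of lymphocytes, 8 of 78. Higher peaks in these 8 loci numbered 6, of which 3 were narrow: 2 near Ets1 (1 narrow) and 1 each near Ubl3 (narrow), Itpr1, Katnal1 and Xylt1 (narrow). No promoter peak of these 8 genes was called, and the lead log2 fold changes ran from -0.88 (Ubl3) to -2.53 (Katnal1). Without spleen control replicate 2 the counts at Atxn1, Ubl3 and Ets1 were 10, 6 and 5, at Ptprj 5 were lower without lung control replicate 2, at Ets1 5 without lung Vps34-deficient replicate 1, and at Lamc1 6 or 7 without spleen or lung control replicate 2 or lung Vps34-deficient replicate 2. With the narrow-peak covariate the numbers of lower peaks were 5 at Atxn1, 7 at Maf, 1 at Lamc1, 2 at Ubl3, 4 at Rapgef5, 4 at Itpr1, 3 at Ptprj, 2 at Katnal1, 5 at Xylt1 and 1 at Ets1.

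Loci with many higher peaks included factors and receptors of resting T cells. They were ranked in the same way. Over all tested peaks 3.52% were higher, and 1.86% outside the narrow class. Satb1, a chromatin organiser of thymocytes and T cells, had 8 of 63 peaks higher, none of them narrow and none lower. The lead peak (chr17:51826449-51826881) lay in an intron, 0.077 kb from a start within the gene. Of the 3 Satb1 peaks within 1 kb of a start, this was the 1 called. It measured 12.4 and 13.9 CPM in control spleen and 16.7, 18.8, 20.6 and 16.5 CPM in Vps34-deficient spleen. In lung it measured 9.16 and 7.36 CPM against 19.5 and 13.3 CPM. It rose without overlap in either tissue (log2 fold change 0.68, SE 0.14, edgeR adjusted p 0.0037). Ccr7, the receptor that guides T cells into lymph nodes, had 7 of 24 peaks higher, none narrow, and 21 of 24 had a positive log2 fold change.

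The lead Ccr7 peak, 15.9 kb from the start (chr11:99170641-99171348), measured 21.2 and 23.3 CPM in control spleen and 25.9 to 31.9 CPM without Vps34, and 25.3 and 29.9 CPM against 51.2 and 44.4 CPM in lung (log2 fold change 0.58, SE 0.10). Without lung Vps34-deficient replicate 1 there were 1 higher peak at Ccr7 and 3 at Satb1, and with the narrow-peak covariate 1 and 0, as against 0 or 1 at each of the other 10 loci with most higher peaks. Foxp1, a repressor of T cell activation, had 7 of 110 peaks higher (5 outside the narrow class), Klf3 7 of 43 (5), Foxn3 7 of 67 (6), and Cmc1, a mitochondrial assembly factor whose called peaks lie between its start and that of Eomes, 7 of 16 (6). Mbnl2, an RNA splicing regulator, had 6 of 26 (5), Cblb, a ubiquitin ligase that restrains T cell activation, 6 of 72 (6), Pik3r1, a regulatory subunit of class I phosphoinositide 3-kinase, 6 of 74 (5), and Trps1 6 of 53 (4). Lower peaks also occurred there, with 2 near Foxn3 and 1 each near Klf3, Trps1, Cblb and Pik3r1, the Pik3r1 one with a log2 fold change of -2.46 (SE 0.52). Of these 12 loci Foxp1 alone kept its count within 1.5 times in every leave-one-out fit (5 to 8), and the lowest counts of the others ran from 1 (Ccr7, Pcdh20 and Pik3r1) to 4 (Foxn3 and Cmc1), mostly without lung control replicate 2, lung Vps34-deficient replicate 1 or a spleen control. In contrast 4 of the 8 higher peaks near Tenm4 and 7 of the 8 near Pcdh20 were narrow.

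Called peaks over 100 kb from any start numbered 486 lower (3.37% of such peaks) and 928 higher (6.44%, or 2.84% outside the narrow class). Most lay outside the stretches named here. Stretches between neighbouring protein-coding starts were ranked by the number of such peaks. The leading one for lower peaks (376 kb on chromosome 5, between the starts of Ubl3 and Katnal1) held 11 among 30 tested, with a median log2 fold change of -0.94. The second, 1267 kb on chromosome 8 between Wwox and Maf, held 10 of 87, with a median of -1.22. Both of these stretches also held 1 higher peak each. The third, on chromosome 12 between Adam6a and Zfp386, where the variable segments of the immunoglobulin heavy chain lie, held 8 of 109. Of the stretches leading for higher peaks, those on chromosome 14 held 8 and 6 called peaks, of which 7 and 6 were narrow. The one between Cmc1 and Eomes on chromosome 9 held 6 of 12, none narrow, with a median log2 fold change of 0.998.

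Gene lists compiled for this tissue and pathway were then counted, with peaks assigned to the nearest start. The lists were chosen with earlier results of these data known, so their shares are a description and not a test. Some genes belong to more than one list. Terminal effector and tissue Treg genes had 76 of 522 peaks lower (14.6%, against 4.06% of all tested peaks) and 11 higher, of which 5 were outside the narrow class. The median log2 fold change was -0.12, against 0.04 over all tested peaks, and 18 of the 25 genes had a lower peak. Beside Maf, Il10 and Klrg1 the list was led by Prdm1, which encodes the effector regulator Blimp-1, with 8 of 29 peaks lower. Leaving out 1 library gave 59 to 84 lower peaks in the list, and the narrow-peak covariate 26. The higher count outside the narrow class was 0 to 4 and 0 in the same fits, with 0 without spleen control replicate 2.

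Coinhibitory receptors had 23 of 156 peaks lower (14.7%) and none higher. Klrg1 and Ctla4, a receptor that blocks costimulation, each had 8 of these, with the Ctla4 ones among 35 tested peaks. The lead Ctla4 peak, 49.0 kb from the start (chr1:60859877-60860209), fell in spleen, where controls averaged 3.36 ± 0.484 CPM (SD, n = 2) and deficient libraries 1.32 ± 0.695 CPM (SD, n = 4), and in lung, where the averages were 7.77 ± 3.59 CPM (SD, n = 2) and 0.928 ± 0.0991 CPM (SD, n = 2). With the narrow-peak covariate 9 peaks of the list were lower. Tigit had 3 of 25 peaks lower and Pvrig both of its 2 peaks, and the lead Tigit peak changed by -1.65 (SE 0.18).

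Integrins, which anchor cells to matrix and to other cells, had 31 of 223 peaks lower (13.9%) and 5 higher, none of these narrow. Those 5 were 2.38% of the peaks outside the narrow class, against 1.86% over all such peaks. The higher count was 1 without spleen control replicate 2 or lung Vps34-deficient replicate 1. The narrow-peak covariate gave 9 lower and 0 higher. Itgb1, the shared beta chain of many matrix receptors, had 8 of 30 lower, Itgb3 6 of 10 and Itga2, a collagen receptor chain, 5 of 16, whereas Itga9 had 4 of 38 higher and none lower. The lead Itga2 peak (chr13:114887125-114888188) measured 9.57 and 7.97 CPM in control spleen against 2.52 to 3.27 CPM, and 22.7 and 23.3 CPM in control lung against 2.66 and 4.93 CPM. It was lower in every Vps34-deficient library than in any control of its tissue.

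Cytokine genes had 30 of 243 peaks lower (12.3%), and 12 of the 28 genes had a lower peak. Higher peaks numbered 8, of which 6 were outside the narrow class (2.54% of such peaks, against 1.86% over all). Those 6 were 2 without spleen control replicate 2 and 3 without spleen Vps34-deficient replicate 1. The narrow-peak covariate gave 13 lower and 1 higher outside the class. After Il10 came Ifng, the gene of interferon gamma, with 5 of 38, Csf1 with 3 of 7 and Il13 with 3 of 7. The Ifng promoter peak (chr10:118440731-118441098) measured 4.22 and 7.28 CPM in control spleen and 0.695 to 1.99 CPM without Vps34, and 4.58 and 4.56 CPM against 2.16 and 0.858 CPM in lung, for an average change of -1.97 on the log2 scale (SE 0.28). Both groups of libraries were apart in each tissue.

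Central and resting T cell genes went the other way more often, with 49 of 780 peaks higher and 20 lower (2.56%). Outside the narrow class 42 of 737 were higher (5.70%, against 1.86% of all such peaks), in 11 of the 22 genes. Satb1, Ccr7 and Klf3 contributed as described, and Bach2, a repressor of effector differentiation, had 5 of 78 peaks higher and 3 lower. Ets1 contributed 8 of the 20 lower peaks. The number of higher peaks in this list outside the narrow class fell to 16 without lung Vps34-deficient replicate 1, 21 without lung control replicate 2, 25 and 27 without spleen Vps34-deficient replicates 2 and 3, and 2 with the narrow-peak covariate. The lower count was 13 without lung Vps34-deficient replicate 1.

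Treg identity genes were close to the background, with 14 of 295 peaks lower (4.75%) and 8 higher, 5 of them outside the narrow class. Those 5 became 2 if lung control replicate 2 or lung Vps34-deficient replicate 1 was dropped. The lower ones were 8 of Ctla4, 5 of 67 near Ikzf2 (Helios) and 1 of 66 near Nrp1. The lead Ikzf2 peak (chr1:69469148-69469841) measured 4.65 and 5.08 CPM in control spleen and 1.30 to 1.82 CPM without Vps34, and 6.33 CPM in both lung controls against 1.16 and 2.14 CPM. The peaks with the most counts near Ikzf2 and Ctla4 were not called.

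**Figure D4:**
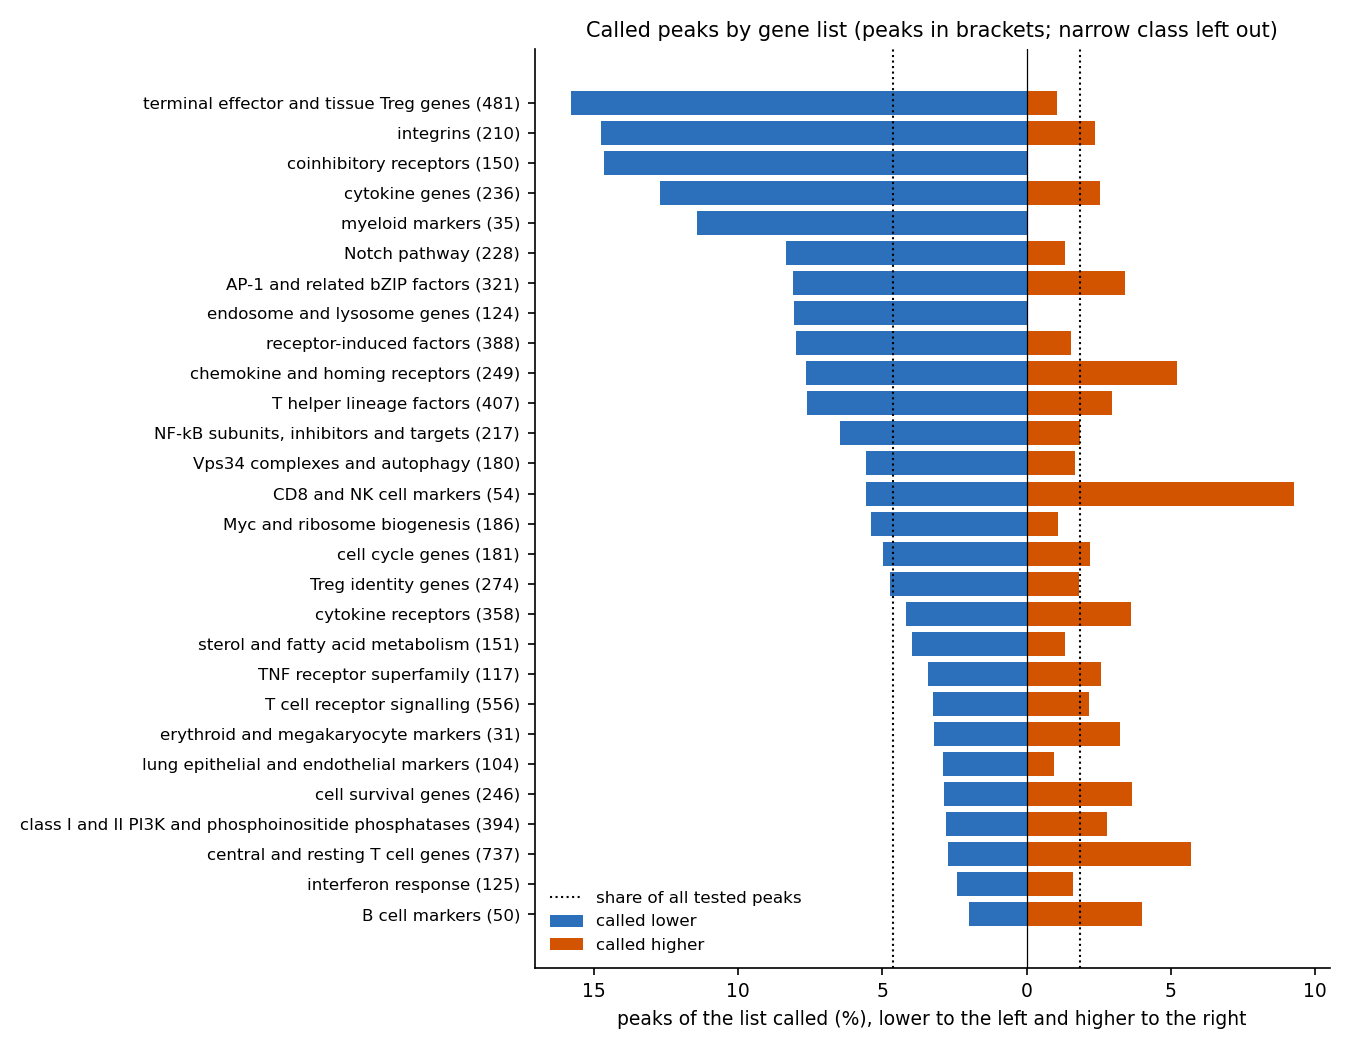
Percentage of the peaks of each gene list called lower (left, blue) or higher (right, orange) in Vps34-deficient cells, peaks of 209 to 216 bp left out and the number of peaks in brackets. Dotted lines mark the shares over all such peaks, 4.62% lower and 1.86% higher; terminal effector, integrin, coinhibitory and cytokine lists reach furthest to the left.

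Genes of the Vps34 pathway itself were called at shares close to those of all tested peaks. Vps34 complexes and autophagy genes had 10 of 208 peaks lower (4.81%, against 4.06%) and 7 higher (3.37%, against 3.52%), 3 of these outside the narrow class, and all 3 higher peaks near Pik3c3 were narrow. The higher count outside the class was 1 without spleen Vps34-deficient replicate 2. Atg7, the enzyme that activates the ubiquitin-like proteins of autophagy, had both of its called lower peaks within 1 kb of a start. Both were centred in an intron, so they need not lie at the first promoter of the gene. The stronger (chr6:114657830-114658137) fell from 4.83 and 5.22 CPM to 1.09 to 2.62 CPM in spleen and from 6.76 and 10.6 CPM to 2.00 and 2.57 CPM in lung. The lead Atg10 peak changed by -1.13 (SE 0.10) and that of Uvrag, a partner of Vps34 in endosomal complexes, by -1.86 (SE 0.25).

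Endosome and lysosome genes had 10 of 130 peaks lower (7.69%) and none higher, 5 of the 10 near Eea1, an endosomal tether that binds phosphatidylinositol 3-phosphate. None of the 10 stayed called with the narrow-peak covariate. Class I and II kinases and phosphatases of the pathway had 11 of 427 lower (2.58%) and 19 higher (4.45%, against 3.52% of all tested peaks). Of the latter 11 were outside the narrow class (2.79% of such peaks, against 1.86% over all). Notch pathway genes had 19 of 255 lower (7.45%) and 7 higher, 3 of these outside the narrow class (1.32% of such peaks). The lead peak near Rbpj, the nuclear effector of Notch, fell from a control mean of 6.99 CPM to between 0.727 and 1.74 CPM in spleen and from 6.54 and 11.6 CPM to 1.66 and 2.14 CPM in lung (log2 fold change -2.47, SE 0.24).

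In the lower direction lists of signalling and lineage factors lay between. Brackets after a higher count give the peaks outside the narrow class and their share, against 1.86% of all tested peaks outside it. AP-1 and related bZIP factors had 26 of 337 peaks lower (7.72%), 13 of them near Maf, and 14 higher (11, 3.43%). Receptor-induced factors had 31 of 415 lower (7.47%) and 10 higher (6, 1.55%), led by Tox, Myc, Irf8 and Nfatc1. T helper lineage factors had 31 of 434 lower (7.14%) and 17 higher (12, 2.95%). NF-kB subunits, inhibitors and targets had 14 of 226 lower (6.19%) and 4 higher (4, 1.84%). Chemokine and homing receptors had 20 of 259 lower (7.72%) and 13 higher (13, 5.22%), 7 of the latter at Ccr7. Cxcr3 had all 3 of its peaks lower, with 2 at its promoter. With 1 library left out the lower count of the bZIP factors was 17 at the least (without lung Vps34-deficient replicate 1) and that of the endosome list 6 (without spleen control replicate 2). The NF-kB list had 7 when lung control replicate 2 was dropped, or 9 when lung Vps34-deficient replicate 1 was. The kinase and phosphatase list had 6, 5 and 6 without lung control replicate 2 and lung Vps34-deficient replicates 1 and 2, and 17 without spleen Vps34-deficient replicate 3. The higher counts outside the narrow class fell as low as 1 for the bZIP factors, 3 for the chemokine and homing receptors (both without lung Vps34-deficient replicate 1), 4 for the T helper factors (without spleen control replicate 1) and 4 for the kinase and phosphatase list (without lung control replicate 2). That of the NF-kB list fell to 2 (without spleen control replicate 1).

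Other lists were near or below the background of 4.06% in the lower direction: Myc and ribosome biogenesis (10 of 201, 4.98%), cell cycle (9 of 203, 4.43%), cytokine receptors (15 of 377, 3.98%), sterol and fatty acid metabolism (6 of 167, 3.59%), TNF receptor superfamily (4 of 125, 3.20%), T cell receptor signalling (18 of 585, 3.08%), cell survival (7 of 259, 2.70%) and interferon response (3 of 133, 2.26%). Outside the narrow class 9 of 246 cell survival peaks (3.66%) and 13 of 358 cytokine receptor peaks (3.63%) were higher, against 1.86% of all such peaks. Both counts rested on the fit used: with 1 library left out they were 6 to 10 and 5 to 13 (5 without lung Vps34-deficient replicate 1), and with the narrow-peak covariate 1 and 2. In the other 6 of these lists the higher share outside the class ran from 1.08% to 2.56%. Leaving out 1 library gave 10 or 11 lower peaks for T cell receptor signalling (without spleen or lung control replicate 2 or either lung Vps34-deficient replicate) and 6 for Myc and ribosome biogenesis (without spleen or lung control replicate 2). It gave 3 for sterol and fatty acid metabolism (without lung control replicate 2), 5 for interferon response (without spleen Vps34-deficient replicate 3), and 3 or 4 for cell survival (without spleen control replicate 1, lung control replicate 2 or either lung Vps34-deficient replicate). Single peaks among them still moved far. The lead peak near Tgfbr2, a receptor of TGF-beta (chr9:116208215-116208607), fell in spleen, where controls averaged 11.2 ± 1.67 CPM (SD, n = 2) and deficient libraries 2.97 ± 0.689 CPM (SD, n = 4), and in lung, where the averages were 18.6 ± 2.23 CPM (SD, n = 2) and 3.15 ± 0.696 CPM (SD, n = 2). The lead peak near Il1rl1, the IL-33 receptor gene, fell in spleen, where controls averaged 4.25 ± 0.888 CPM (SD, n = 2) and deficient libraries 1.16 ± 0.391 CPM (SD, n = 4), and in lung, where the averages were 18.4 ± 5.39 CPM (SD, n = 2) and 2.94 ± 0.393 CPM (SD, n = 2). The Mx1 promoter peak, of an interferon-induced antiviral gene, rose by 0.66 on the log2 scale (SE 0.15).

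Markers of other cells that a sort could hold were read at their promoter peaks. The 8 promoter peaks of 6 of 16 myeloid markers summed to 44.6 to 46.3 CPM in control spleen and 33.1 to 37.8 CPM in Vps34-deficient spleen, and to 56.9 to 62.5 CPM against 40.1 to 40.4 CPM in lung, so this sum moved with genotype in both tissues. Of these peaks 2 were called lower, at Cebpa and Mpo, while Lyz2, Csf1r, Adgre1 and Elane had no tested promoter peak. The lead myeloid peak near Cebpa changed by -1.75 (SE 0.30). The part of myeloid cells in the lower peaks was not tested. For B cell, CD8 and NK cell, lung epithelial and endothelial, and erythroid and megakaryocyte markers none of 9, 9, 12 and 10 promoter peaks was called. In spleen the genotypes overlapped in all 4 of these sums. In lung the CD8 and NK cell sum was 51.2 to 53.9 CPM in controls and 55.2 to 61.6 CPM without Vps34, and the erythroid sum 32.2 to 38.2 and 38.5 to 44.4 CPM. The lung epithelial and endothelial sum was 84.5 to 101.1 CPM in control lung and 83.0 to 84.5 CPM without Vps34, and the B cell sum overlapped. The part of these cells in the results was not tested. In the whole lists 4 of 46 myeloid peaks were lower (8.70%, against 4.06% of all tested peaks), and 3 were higher, all narrow. Of 58 CD8 and NK cell peaks 3 were lower (5.17%), at Gzma, Nkg7 and Eomes, and 5 were higher (8.62%, against 3.52%), none narrow. That higher count was 2 or 3 without either spleen control or without spleen Vps34-deficient replicate 1.

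Promoters changed least. Of 16622 peaks centred within 1 kb of a protein-coding start 217 (1.31%) were lower and 129 (0.776%) higher. Between 1 and 10 kb the shares were 4.60% lower and 3.11% higher, between 10 and 100 kb 5.04% and 3.78%, and beyond 100 kb 3.37% and 6.44%. Without the narrow class the higher shares were 0.492%, 1.83%, 2.19% and 2.84% in the same order, and the lower share beyond 100 kb was 4.86%. Of 753 such peaks of the listed genes 23 were lower, among them those of Jag1, Klrg1, Ifng, Tigit, Il2, Gzmb and, in an intron, Atg7. A further 6 were higher. On chromosome X 1.64% of 2747 peaks were lower and 4.37% higher, against 4.13% and 3.50% on autosomes. Of the 120 higher peaks on chromosome X 25 were outside the narrow class, which is 1.17% of such peaks there.

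Sequence motifs were held at different shares in the called sets. They were searched on both strands in the 300 bases around each peak's centre, and a share is the percentage of peaks that hold at least 1 match. A match to AP-1 (TGANTCA), bound by Fos, Jun and Batf dimers, was held by 29.8% of the lower peaks, 17.0% of the higher peaks outside the narrow class and 13.3% of all tested peaks outside it. Among peaks over 10 kb from a start the values were 31.0%, 17.9% and 15.7%. The AP-1 share climbed with the size of the loss, from 10.6% of peaks with a log2 fold change between -0.25 and 0 to 22.6% between -1 and -0.5 and 33.7% below -2.

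Runx (TGTGGT) was held by 42.6% of lower, 27.6% of higher and 27.3% of all peaks outside the narrow class, Ets (CAGGAAG) by 32.6%, 16.3% and 22.1%, the nuclear receptor site (AGGTCA) by 26.1%, 16.2% and 16.6%, and Fox (TGTTTAC) by 7.76%, 3.45% and 4.35%. The higher peaks outside the narrow class instead held more Tcf/Lef (CTTTGA; 34.2%, against 20.7% of lower and 21.6% of all), IRF (GAAA repeated after 2 bases of any kind; 13.2%, 4.45% and 5.78%), Stat (TTCNNNGAA; 14.6%, 7.50% and 9.12%) and NF-kB matches (by name; 6.26%, 2.29% and 2.46%). Peaks of both directions held fewer CTCF core matches (AGGNGGC with CC placed 3 bases before it; 1.75% of lower and 1.66% of higher) than all peaks (7.22%), and fewer Sp/Klf matches (GGGCGG; 10.3% and 9.64%, against 20.5%). E-box (CACCTG or CAGGTG) was held by 21.2%, 24.1% and 23.4%, AGATAA, the motif of Gata factors, by 19.1%, 16.9% and 14.4%, and CRE (TGACGTCA) by 1.22%, 0.447% and 0.963%.

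Among peaks over 10 kb from a start Sp/Klf was held by 8.58% of lower, 6.59% of higher and 9.71% of all peaks outside the narrow class, so these shares lay closer together there. CTCF was at 1.69%, 1.65% and 7.02%, Runx at 42.7%, 28.1% and 31.2%, Ets at 32.7%, 16.7% and 24.4%, and Tcf/Lef at 21.3%, 35.4% and 25.0%. The lower peaks called with the narrow-peak covariate held AP-1 in 31.8%, Runx in 43.5% and Ets in 34.4%. Narrow peaks called higher held AP-1 in 9.85%, Runx in 20.5% and Tcf/Lef in 22.8%, against 10.5%, 21.3% and 21.9% of all narrow peaks. Among the printed sequences Gpcpd1 and Lamc1 each hold 2 AP-1 matches beside a Runx match, whereas Foxn3 holds 2 Tcf/Lef matches. The Jag1 sequence has a Runx match, and the AP-1 match of this peak lies in the 300-base window but outside the 200 bases printed. These matches are letters in a window and not measured binding.

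**Figure D5:**
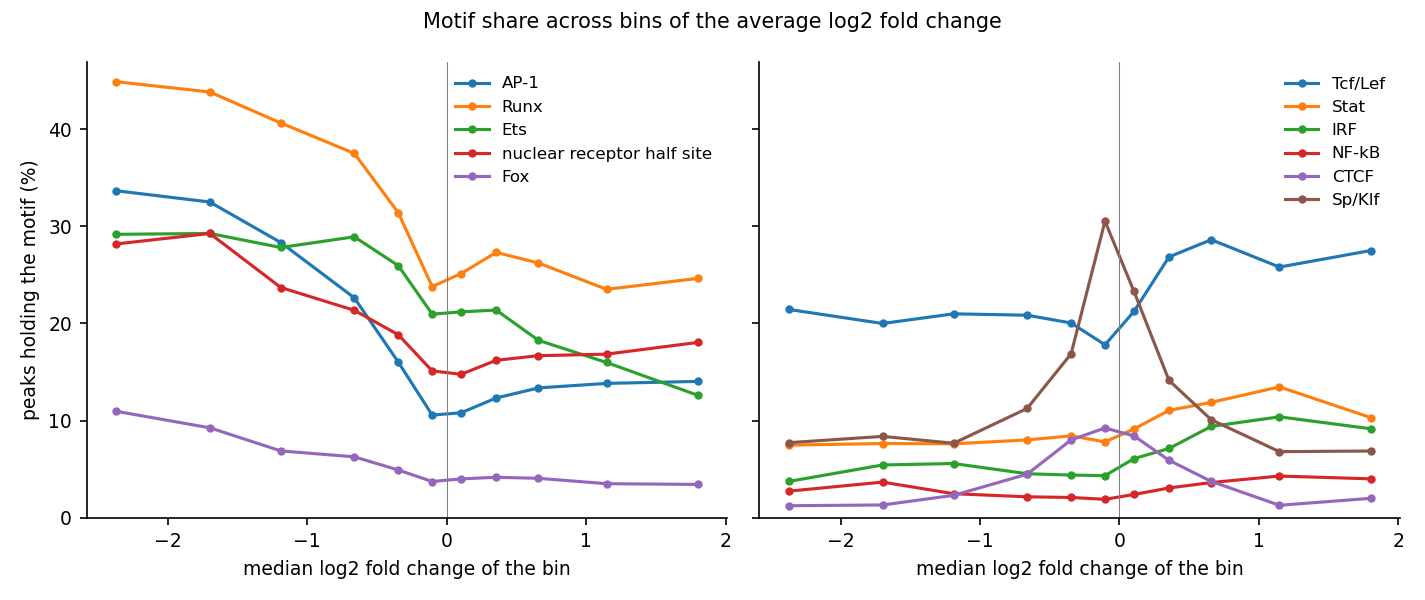
Percentage of peaks outside 209 to 216 bp that hold each motif (vertical axis) by the median average log2 fold change of the bin (horizontal axis), 1 line per motif. AP-1 climbs from 10.6% just below 0 to 33.7% in the bin below -2, Tcf/Lef is higher on the right, and CTCF and Sp/Klf are highest near 0.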

How the data were processed

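Treg cells from spleen and lung were profiled by ATAC-seq in 10 libraries. The deposited table holds raw counts per peak, which the authors made without normalization; per the submitters' processing notes the tools included cutadapt 1.9, Picard 1.65, MACS2 2.1.0.20150603, SAMtools and bedtools, with the build mm10/GRCm38. Even numbers made up 91.5% to 96.5% of a library's values, so a table of halved counts was also fitted. The study's methods name an older build, mm9, so the deposited positions were checked: of 21829 genes 57.4% had a start in a peak, against 4.72% and 4.77% after shifts of 100 kb. Columns not used numbered 0.

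Counts were fitted with edgeR 4.0.16 (R 4.3.3; limma 3.58.1) by the quasi-likelihood test with TMM scaling, filterByExpr, tissue and genotype, and Benjamini-Hochberg adjustment over all 97109 tested peaks. Calls required a log2 fold change over 0.5 in size and an adjusted p under 0.05. CPM are scaled by library size and TMM factors, and SE is the fold change over the square root of F. Total counts of 9405823 to 22439699 per library set the precision, and low peaks rest on few counts. Groups came from the labels, whose spleen group sizes are the reverse of those in the study's methods. Each peak was assigned to the nearest protein-coding start.

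Named peaks were the 10 with the smallest p per direction without overlap in either tissue (1 per gene), the lead peaks of the 12 genes with the most called peaks per direction, up to 4 members per gene list by number of called peaks, 5 check genes and the 3 stretches per direction with the most called peaks over 100 kb from a start. Members and lists were chosen with earlier results of these data known. Alternatives were other scalings, filters, thresholds, covariates, offsets and weights, DESeq2 1.42.0, a replicate block and leaving out each library. The narrow class runs from 1 bp below to 6 bp above the most frequent width, 210 bp, bounds set after seeing the data. Leaving out its peaks, or adding their log2 share of counts as a covariate, was chosen after seeing the data. Same-numbered replicates had correlations of deviations from -0.098 to 0.063. In a group of 2 libraries the deviations mirror each other, so these values cannot decide whether the numbers pair the libraries. Chromosome Y counts of same-numbered spleen and lung libraries of the same genotype were high together or low together. In controls they were 56.9 and 67.6 CPM for replicate 1, and 7.03 and 12.8 CPM for replicate 2. In Vps34-deficient cells they were 9.88 and 21.4 CPM, and 64.8 and 63.4 CPM. Whether these libraries came from the same mice was not tested.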

Additional observations from a re-analysis of the deposited data

Results flagged for a closer look

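Of 44 named peaks tested for a library far from its group in the 4 Vps34-deficient spleen libraries, 2 passed the 95% limit of Dixon's test for 4 values, and chance flags about 1 in 20 such groups. At the Klf3 peak replicate 4 measured 11.5 CPM against 7.86, 7.94 and 8.38 CPM, a gap of 0.858 of the range. At the Mbnl2 peak replicate 1 measured 4.97 CPM against 3.64, 3.56 and 3.69 CPM, a gap of 0.909 of the range. The TMM scaling factor of the same group had a gap of 0.881 of its range. The causes were not tested.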

How the results depend on the processing

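The balance between lower and higher peaks depended on the processing, and its direction turned by DESeq2 (49.0% lower, 4408 higher against 4233 lower), with a mean count of at least 20 (49.8%) and without lung control replicate 1. The number of higher peaks was 3416, and 1902 with narrow peaks left out, 175 with their share as a covariate, 818 at an adjusted p below 0.01 and 894 at an absolute log2 fold change above 1. The number of lower peaks was 3938, and 989 with the covariate, 2210 at an adjusted p below 0.01 and 2132 above the larger fold change. The share of called peaks that were lower was 53.5%, and 66.5%, 85.0%, 73.0% and 70.5% in the order narrow peaks left out, covariate, adjusted p and fold change. With 1 library left out it ran from 40.5% (without lung control replicate 1) to 68.0% (without spleen control replicate 1), the higher count from 1426 (without lung control replicate 2) to 5762 (without lung control replicate 1) and the lower count from 2852 to 4198. Interaction calls were 0, 24 by DESeq2 and from 0 to 21 with 1 library left out. With the replicate block 2247 peaks were higher and 3054 lower, and 0 passed the interaction test. With the covariate the narrow peaks near Tenm4, Pik3c3 and Cd68 turned to log2 fold changes of -0.000133, -0.0203 and -0.103. Leave-one-out fits kept between 70.7% and 95.5% of the lower calls, and the covariate 24.5%, against 49.5% to 80.0% and 7.21% of the higher calls outside the narrow class. With the covariate all 12 lead peaks of the loci with most lower peaks were called, although their counts of lower peaks fell to between 1 and 7, 2 of 12 for most higher peaks and 32 of 90 named from gene lists. Of those 90 and of the 12 higher ones, 18 and 2 lost their call in some other fit at the same thresholds. The stricter thresholds are not part of that count. The causes were not tested. Groups of 2 libraries and low counts limit what can be said of single peaks and of differences between tissues.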

Other observations

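Within the lower peaks the number of AP-1 matches in the 300-base window went with the size of the loss. The median log2 fold change was -1.04 in the 2761 windows with no match, -1.10 in 969 with 1, -1.18 in 171 with 2 and -1.30 in 31 with 3 or more. The percentage of lower peaks on single autosomes ran from 2.97% (chromosome 17) to 5.22% (chromosome 10). Of 17151 genes with a tested peak 1846 had a lower and no higher peak, and 554 had both, with narrow peaks counted.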
